A study of Mus musculus with 44 samples.

Results

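The genes described here are 9 genes known for their roles in blood stem and progenitor cells: Cd34, Flt3, Mecom, Hlf, Meis1, Hoxa9, Myb, Spi1 and Cebpa. They were listed by name, with earlier results of these data known. They were followed in liver, spleen and bone marrow of mice given 2-butoxyethanol (2BE), a glycol ether solvent. The arrays carried 17 probe sets annotated with exactly 1 of these symbols, of 34945 probe sets annotated with 1 gene symbol, and 9 genes of the 18193 tested. Each gene is represented by its brightest probe set over the 44 arrays, and the others are given further on.

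All animals were B6C3F1 mice, a hybrid laboratory strain, and the arrays fall into 10 groups. At 7 d there were 5 arrays of 2BE and 5 of vehicle for bone marrow, 5 and 5 for spleen, and 5 and 4 for liver. At 4 h there were 4 arrays of 2BE and 4 of vehicle for spleen, and 4 and 3 for liver. Per the series' design text, marrow came from the right humerus, liver from the left lateral lobe and spleen as part of a cross-section. The sample titles name the arms 2BE and vehicle, whereas the treatment field reads reduced oxygen for the 2BE samples and control for the others. The groups follow the titles. Dose, route, sex and age are not given in the sources used here, and nothing in them says that replicates are separate animals, so p-values measure the spread between these samples. Values are normalized intensities on a linear scale. Array medians were alike within each tissue and time set but ran between 41.2 and 111.5 across the sets, lowest for liver and highest for spleen at 7 d. The sets may therefore have been normalized separately, and differences were taken within a set. At 4 h, vehicle replicate 3 of the spleen stood apart from the other vehicle spleens. Its summed intensity over 8 neutrophil markers was 107002, against 19585 to 42629 in the other 3 arrays, and over 5 B cell markers it was 11068, against 19167 to 24238. Hepatocyte markers set the liver arrays apart, though they do not tell spleen from marrow. The summed intensity of 5 hepatocyte genes reached 135211 to 145965 in 2BE livers and 132502 to 136499 in vehicle livers at 7 d. It was at most 628 in any marrow array and at most 3087 in any spleen array. That highest spleen value belonged to 2BE replicate 3 at 4 h, and the next, 1585, to vehicle replicate 2 at 7 d. The same 2 arrays had the highest sums over 4 adipocyte markers, 3028 and 2428, and vehicle replicates 4 and 5 at 7 d had 851 and 691, whereas the other 14 spleens had 155 to 290. The spleen fits were therefore repeated without these 4 arrays, a choice made after seeing the data.

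Blood cells of all lineages descend from haematopoietic stem cells, which in adult mice reside mainly in bone marrow. In mice the spleen is a further site of blood formation, and it expands red cell production when red cells are lost. Stem cells pass through multipotent progenitors to cells committed to lymphoid, granulocyte and monocyte, or erythroid and megakaryocyte fates, and the transcription factors and receptors listed here are switched on and off along these paths. Cd34, a sialomucin, and Flt3, a receptor tyrosine kinase, are surface proteins of early progenitors. Mecom, Hlf, Meis1 and Hoxa9 encode transcription factors of the stem cell end of the tree, with MEIS1 acting as a homeodomain partner of HOX proteins. Myb encodes a transcription factor of proliferating progenitors of several lineages. Spi1 encodes PU.1 and Cebpa encodes C/EBP-alpha, which set the granulocyte, monocyte and, for PU.1, B lymphoid programmes.

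The genes differed widely in where they were bright in vehicle mice. Myb had its highest level in marrow, at 4187 to 5043 in vehicle marrow at 7 d, against 857 to 1293 in vehicle spleen and 15.4 to 17.5 in vehicle liver. Spi1 followed the same order, with 1201 to 1748 in vehicle marrow, 955 to 1169 in vehicle spleen and 94.5 to 111 in vehicle liver. Hoxa9 was also highest in vehicle marrow (218 to 242), then spleen (160.0 to 212) and liver (116 to 121). For these 3 genes no neighbouring groups in the order overlapped. Flt3, Meis1, Mecom and Cd34 were highest in the spleen. Flt3 lay at 456 to 539.7 in vehicle spleen, 242 to 264 in vehicle marrow and 83.7 to 88.0 in vehicle liver, and Meis1 at 164 to 203, 117 to 129 and 65.5 to 70.6 in the same tissues. Mecom lay at 101 to 131 in vehicle spleen, 44.4 to 49.7 in vehicle marrow and 37.1 to 38.8 in vehicle liver. Cd34, which endothelial cells also carry, lay at 233 to 375.5 in vehicle spleen and 219 to 262 in vehicle marrow, ranges that overlapped, and at 15.5 to 19.8 in vehicle liver. The remaining 2 genes were brightest in liver: Cebpa, also a regulator of hepatocytes, with 3868.5 to 4470.4 in vehicle liver, and Hlf, also a clock-driven liver factor, with 451 to 624. In vehicle marrow and spleen Cebpa had 727 to 787 and 465 to 555.5, and Hlf 86.0 to 113 and 109.5 to 129, which overlapped for Hlf. These orders span sets that may have been normalized separately, so they are a description. They are also those of each gene's brightest probe set. A dimmer Mecom probe set overlapped between vehicle spleen (33.8 to 49.3) and vehicle marrow (42.0 to 48.4). A dimmer Meis1 probe set was higher in vehicle liver (42.9 to 46.3) than in vehicle marrow (32.5 to 41.2). By group means, the remaining probe sets kept the orders.

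By brightest probe sets, Myb changed most in marrow, Meis1 fell most in the spleen, and Hoxa9 was the only member called higher there. The promoters of Myb, Meis1 and Hoxa9 are shown because these genes moved in different ways. Each is 300 bases of the mouse reference (RefSeq, GRCm38.p6), 250 before and 50 after the gene's start, printed 5′ to 3′ on the gene's strand, with matches to the searched motifs in capitals. The start is that of the promoter table, which for Meis1 lies inside the gene's annotated span.
Myb, chr10:21160935-21161234, minus strand: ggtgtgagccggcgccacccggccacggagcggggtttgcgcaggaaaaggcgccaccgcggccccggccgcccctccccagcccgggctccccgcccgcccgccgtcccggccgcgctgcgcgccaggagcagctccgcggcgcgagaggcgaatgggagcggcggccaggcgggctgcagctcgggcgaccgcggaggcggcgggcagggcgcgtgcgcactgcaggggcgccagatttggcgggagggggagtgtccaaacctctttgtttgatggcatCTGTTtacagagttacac
Meis1, chr11:19018920-19019219, minus strand: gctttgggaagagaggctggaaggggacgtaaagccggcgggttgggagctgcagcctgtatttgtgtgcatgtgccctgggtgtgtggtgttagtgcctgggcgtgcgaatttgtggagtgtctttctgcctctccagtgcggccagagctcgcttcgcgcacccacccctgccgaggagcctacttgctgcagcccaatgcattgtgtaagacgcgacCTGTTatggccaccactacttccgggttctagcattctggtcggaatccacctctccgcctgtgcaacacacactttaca
Hoxa9, chr6:52227321-52227620, minus strand: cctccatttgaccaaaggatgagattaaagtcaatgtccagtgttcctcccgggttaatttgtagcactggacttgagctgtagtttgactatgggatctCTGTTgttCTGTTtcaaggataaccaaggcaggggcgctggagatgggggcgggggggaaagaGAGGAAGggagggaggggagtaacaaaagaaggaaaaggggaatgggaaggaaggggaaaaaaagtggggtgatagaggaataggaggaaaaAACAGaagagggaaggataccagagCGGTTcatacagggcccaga
Promoters of 8 of the 9 genes were searched, and that of Spi1 was not used here. The Myb promoter was the richest in G and C of the 3, at 75.0%, against 58.3% for Meis1 and 49.7% for Hoxa9. The motifs were searched on both strands, positions are those of a match's first base counted from the start, and no matches of different motifs overlapped in these 3 windows. The core letters of the MYB site, AACNG, occurred in the Myb and Meis1 windows, at positions 33 and -30 from the start, and 4 times in the Hoxa9 window, at -150, -142, 6 and 31. These short letters were in all 9 member windows (Mecom has 2) and in 80.3% of 32851 promoters of the same length. The PU.1 letters GAGGAAG, found in 13.6% of those promoters, occurred among the members in the Hoxa9 window alone, at -87. The MEIS letters TGACAG, in 19.2% of promoters, occurred in 1 member window, that of the second annotated start of Mecom, at -86. No member window held the C/EBP letters TTGCNNAA, the HOX and PBX letters TGATTNAT or the GATA letters AGATAA, found in 10.8%, 3.22% and 11.2% of promoters.

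In bone marrow at 7 d, Myb was the member with the clearest change: it fell by 0.71 on the log2 scale in 2BE marrow. Spi1 fell by 0.25, and the other 7 members did not pass the test. The question was whether these genes differed with 2BE in the main blood-forming tissue at 7 d. Of the 9 genes, 2 were called at an adjusted p under 0.05 (limma, Benjamini-Hochberg over 18193 genes), both lower, where 20.1% of all genes were called and 10.7% were called lower. The members' median log2 fold change was -0.16, against 0.0067 for all genes.

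Myb, on chromosome 10 (21124930 to 21160984), encodes the proto-oncoprotein c-MYB, which keeps progenitors dividing and is turned down as they mature. Its intensities were 3086, 2273, 2688, 2716.5 and 3456 in 2BE marrow, against 4466, 4187, 5043, 4790.2 and 4574.5 in vehicle marrow. The highest 2BE array lay below the lowest vehicle array. On the log2 scale the change was -0.71 ± 0.094 (SE; adjusted p = 0.000153), a level 1.63-fold lower in 2BE marrow. Its 2 other probe sets fell as well, by 0.57 and 0.63 (adjusted p = 0.00283 and 0.000672 over all probe sets). In whole tissue, fewer cells of a type and less RNA per cell cannot be told apart.

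Spi1, on chromosome 2 (91082374 to 91115759), encodes PU.1, which is high in myeloid and B lineage cells and low in maturing erythroid cells. It had 1124.5, 1157, 1161, 1218.5 and 1205 in 2BE marrow and 1748, 1201, 1365, 1389.6 and 1320.2 in vehicle marrow. The 2BE arrays were tightly grouped, and 3 of the 5 lay below all vehicle arrays. Its log2 fold change was -0.25 ± 0.081 (adjusted p = 0.0444). This call was near the threshold: it was kept without vehicle replicate 2 (adjusted p = 0.0154), and lost without each of the other 9 arrays in turn (0.0567 to 0.0847), against a range of 0.0154 to 0.0847 over all alternatives.

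Cebpa, on chromosome 7 (35119293 to 35121928), whose product starts the granulocyte programme, had 660.1, 599, 631, 628 and 797 in 2BE marrow, against 762, 727, 772, 764 and 787 in vehicle marrow. In 4 of the 5 2BE arrays it was below all vehicle arrays, and replicate 5 was above them all. The log2 fold change was -0.21 ± 0.07, with an adjusted p of 0.0511 that missed the threshold. Without 2BE replicate 5 it was -0.28 (adjusted p = 0.0022), and it also passed with array weights (0.0287) or a low-value filter (0.0404), within 0.0022 to 0.115 over the alternatives. Cd34, on chromosome 1 (194938821 to 194961292), had 228, 181.5, 172, 217 and 236 in 2BE marrow and 243.5, 249, 219, 262 and 232 in vehicle marrow. The groups overlapped, with a log2 fold change of -0.23 ± 0.087 (adjusted p = 0.0828), and without 2BE replicate 5 the adjusted p was 0.0366, against 0.0366 to 0.195 over the alternatives.

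The stem cell transcription factors and Flt3 were not called in marrow. Meis1, on chromosome 11 (18880428 to 19019651), had 125, 83.7, 107, 117 and 119 in 2BE marrow and 129, 122, 117, 125 and 120.4 in vehicle marrow, a log2 fold change of -0.16 ± 0.09 (adjusted p = 0.222). Its lowest 2BE array, replicate 2, stood well below the rest. Hoxa9, on chromosome 6 (52223097 to 52227370), had 221 to 258 in 2BE marrow and 218 to 242 in vehicle marrow. Mecom, on chromosome 3 (29951296 to 30509759), had 40.3 to 58.4 in 2BE marrow and 44.4 to 49.7 in vehicle marrow. For Hlf, on chromosome 11 (90336535 to 90390917), the range was 92.4 to 127 in 2BE marrow and 86.0 to 113 in vehicle marrow. The Flt3 receptor gene, on chromosome 5 (147330741 to 147400489), ranged 239 to 307 in 2BE marrow and 242 to 264 in vehicle marrow. All 4 had overlapping groups and log2 fold changes of 0.05, 0.09, 0.08 and 0.08. Their 95% intervals were -0.07 to 0.17 for Hoxa9, -0.10 to 0.27 for Mecom, -0.11 to 0.26 for Hlf and -0.06 to 0.23 for Flt3, so a change as large as that of Myb lay outside each of them.

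**Figure D1:**
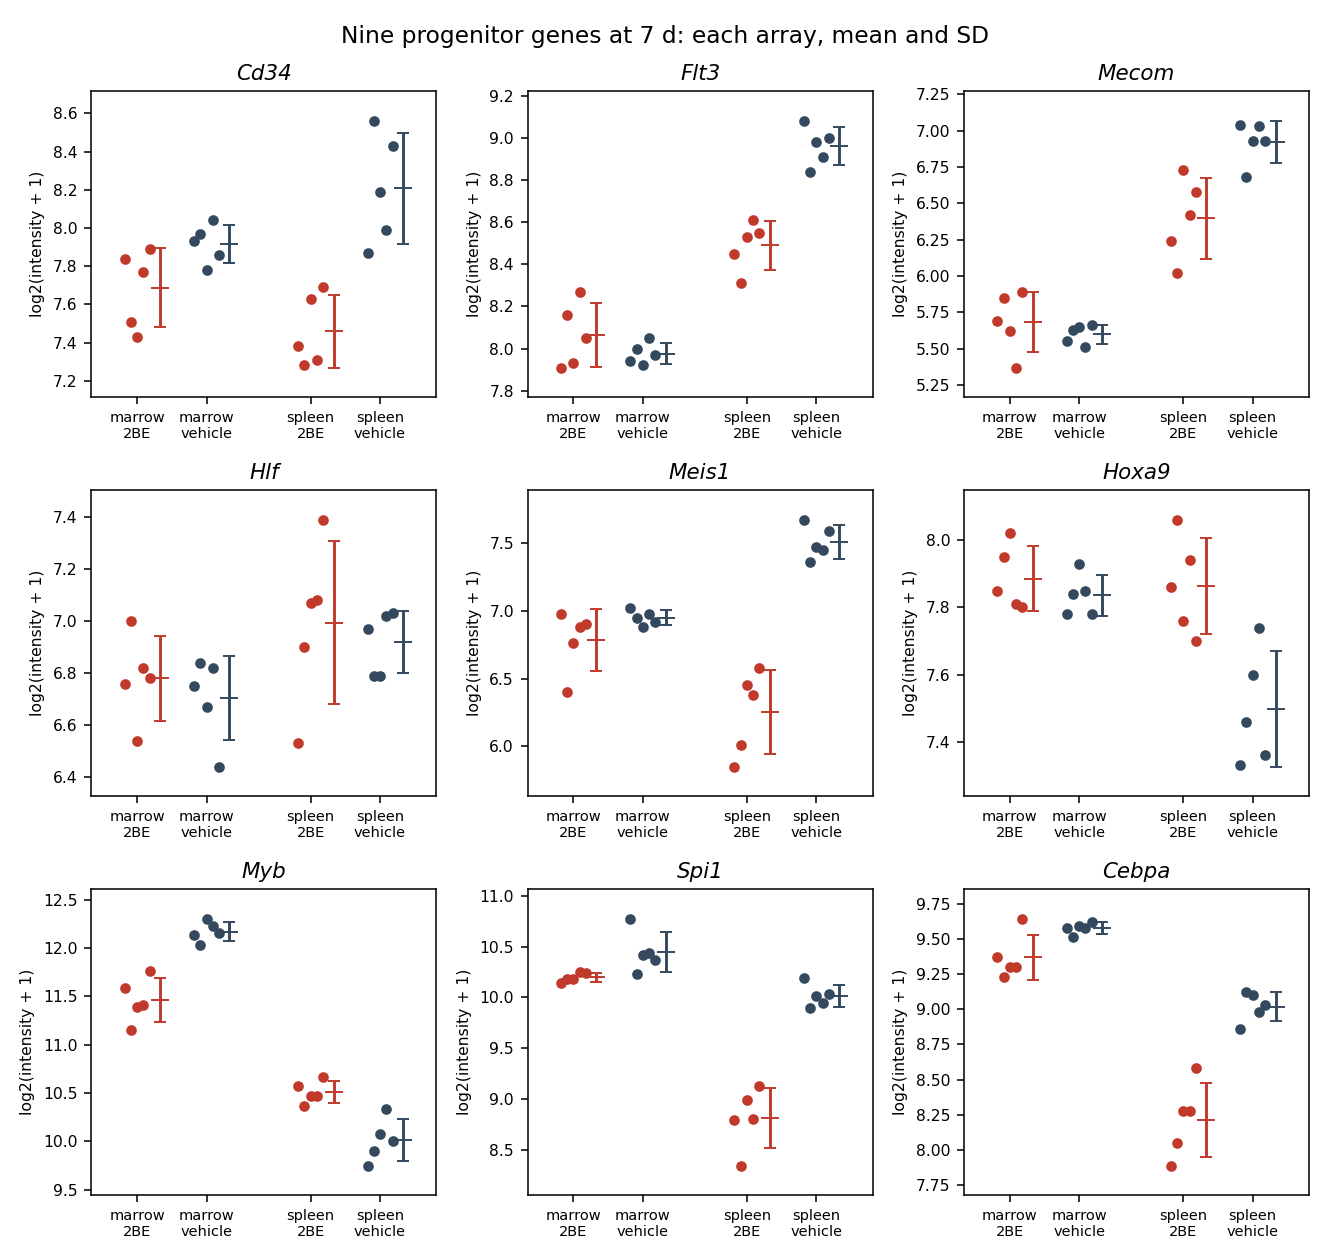
Level of each of the 9 genes at 7 d in bone marrow and spleen, 1 panel per gene, as log2(intensity + 1) on a vertical axis that differs between panels and does not start at 0, with arrays as points (2BE in red, vehicle in dark blue, 5 each) beside their mean and SD. Myb is lower in all 5 2BE marrow arrays than in any vehicle marrow array and higher in all 5 2BE spleen arrays than in any vehicle spleen array, while Meis1, Spi1, Cebpa, Cd34 and Flt3 separate in the spleen with 2BE lower.

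Genes around the members in the same pathways moved apart by lineage in marrow, in lists that share some genes. Tal1, Gfi1b and Epor also stand in the erythroid and megakaryocyte list, and Il7r also stands in the lymphoid list. Of 25 measured stem and early progenitor genes, 3 were higher and 7 lower, beside 9.4% of all genes called higher and 10.7% called lower. Among them Cd93, a surface protein of early progenitors, fell by 0.73, while the erythroid and megakaryocyte regulators Gfi1b (0.66) and Tal1 (0.48) rose. Of 15 growth factors and receptors, 1 rose, the erythropoietin receptor gene Epor (0.50), and 3 fell, led by Il7r (-1.19), the receptor for the lymphoid growth factor interleukin 7. Of 12 lymphoid progenitor genes, 11 fell and none rose, with a median of -1.14. Rag1 (-1.92), which cuts antigen receptor genes, Sox4 (-1.41), Vpreb1 (-1.23) and Ebf1 (-1.21) had the largest falls. Of 13 erythroid and megakaryocyte progenitor genes, 12 rose, with a median of 0.39, led by Gfi1b and the transferrin receptor gene Tfrc (0.64). None of 7 megakaryocyte and platelet markers was called in marrow (median -0.14). Among 11 granulocyte and monocyte progenitor genes, 2 fell (Irf8, -0.53, and Elane, -0.25) and Cebpb rose by 0.41. Beside the fall of Myb, 1 of 8 MYB target and cofactor genes was called, the cofactor gene Ep300, which rose by 0.24.

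Cell type markers moved beside these values in marrow, where 9.4% of all genes were called higher and 10.7% lower. All 5 B cell markers fell (median -1.67), with summed intensities of 1976 to 3395 in 2BE marrow, against 6859 to 8649 in vehicle marrow. Of 6 erythroid markers, 4 rose (median 0.46), with sums of 39296 to 43895 in 2BE marrow and 28713 to 36477 in vehicle marrow. Of 9 proliferation markers, 6 rose (median 0.19), with sums of 57323 to 60462 in 2BE marrow and 48935 to 53995 in vehicle marrow. Neutrophil markers, with 1 of 8 called lower, summed to 158915 to 163237 in 2BE marrow and 159466 to 174114 in vehicle marrow. The lowest value in the whole table was 6.16, so a marker's value above 0 does not show that it was expressed. The part of these cell types in the falls of Myb and Spi1 was not tested.

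In the spleen at 7 d most members changed: Meis1, Spi1, Cebpa, Cd34, Mecom and Flt3 fell, and Hoxa9 rose. By each gene's brightest probe set, Meis1 and Spi1 fell the most, by 1.25 and 1.20 on the log2 scale. Myb was higher in all 5 2BE arrays but did not pass the main test, and Hlf did not pass either. In all, 7 of the 9 were called, 6 lower and 1 higher. This stands beside 64.4% of all genes called in this comparison, 32.0% lower and 32.4% higher, so being called is ordinary here. The members' median log2 fold change was -0.52, against 0.051 for all genes.

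Meis1 encodes a homeodomain factor needed by stem cells and also expressed in megakaryocytes. It had 56.7, 63.6, 86.3, 82.4 and 94.8 in 2BE spleens, against 203, 164, 176, 173 and 192 in vehicle spleens. Every 2BE array was far below every vehicle array. On the log2 scale the change was -1.25 ± 0.11 (adjusted p = 7.24e-08), or 2.38-fold lower in 2BE spleens. The other Meis1 probe sets gave smaller values, -0.49 and -0.11 (adjusted p = 0.000413 and 0.349 over all probe sets). Spi1 moved with Meis1, at 446, 324, 508, 446 and 559.5 in 2BE spleens and 1169, 955, 1032, 990.3 and 1044 in vehicle spleens. The groups did not overlap, and the log2 fold change was -1.20 ± 0.12 (adjusted p = 1.88e-07), or 2.30-fold lower.

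Cebpa, the partner of PU.1 in the myeloid programme, had 236, 264.5, 311, 311 and 382 in 2BE spleens and 465, 555.5, 546, 503 and 520.0 in vehicle spleens. No 2BE array reached the lowest vehicle array, and the log2 fold change was -0.80 ± 0.11 (adjusted p = 3.33e-06). Flt3, whose ligand drives dendritic cell and lymphoid progenitor growth, had 348, 316, 369, 389.7 and 374 in 2BE spleens, against 539.7, 456, 505, 479.7 and 511 in vehicle spleens. The groups were again separate, by a smaller step of -0.47 ± 0.096 (adjusted p = 0.000333). Cd34 had 165, 154, 198, 158 and 206 in 2BE spleens and 233, 375.5, 290.1, 253 and 344 in vehicle spleens, without overlap, a log2 fold change of -0.75 ± 0.17 (adjusted p = 0.000807). Without the vehicle spleens of high adipocyte sums, replicates 2, 4 and 5, it was -0.57 ± 0.15 (adjusted p = 0.0049, against 9.88e-05 to 0.0049 over the alternatives). Mecom, whose products EVI1 and MDS1-EVI1 sustain stem cells, had 74.6, 64.1, 105, 84.5 and 94.9 in 2BE spleens and 131, 101, 121, 129.6 and 121 in vehicle spleens. Of the 5 2BE arrays 4 were below all vehicle arrays, and the log2 fold change was -0.52 ± 0.12 (adjusted p = 0.000964), a value carried by this probe set alone, as given further on.

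Hoxa9 went the other way from its partner Meis1. It had 232, 266.5, 216, 244 and 208 in 2BE spleens, against 160.0, 175, 193, 212 and 163 in vehicle spleens. Vehicle replicate 4 overlapped the 2BE range, and 4 of the 5 2BE arrays were above all vehicle arrays. Its log2 fold change was 0.37 ± 0.095 (adjusted p = 0.00257), a 1.29-fold higher level. Myb had 1518, 1326, 1415, 1417 and 1633 in 2BE spleens and 857, 956, 1082, 1293 and 1024 in vehicle spleens. The groups did not overlap, the opposite arrangement to that in marrow. The log2 fold change was 0.50 ± 0.24 (adjusted p = 0.0728). That fit shares its spread with the spleen arrays at 4 h, where Myb ranged from 884 to 2687 in vehicle spleens. With the 7 d spleen arrays alone the value was 0.50 ± 0.10 (adjusted p = 0.000817, against 0.000817 to 0.149 over the alternatives), and a two-sided exact permutation test gave p = 0.00794, the smallest that 5 against 5 arrays allow. Hlf had 91.3, 119, 133, 135 and 167 in 2BE spleens and 124, 109.5, 109.9, 128.5 and 129 in vehicle spleens, overlapping groups, and its log2 fold change of 0.08 had a 95% interval of -0.18 to 0.33.

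**Figure D2:**
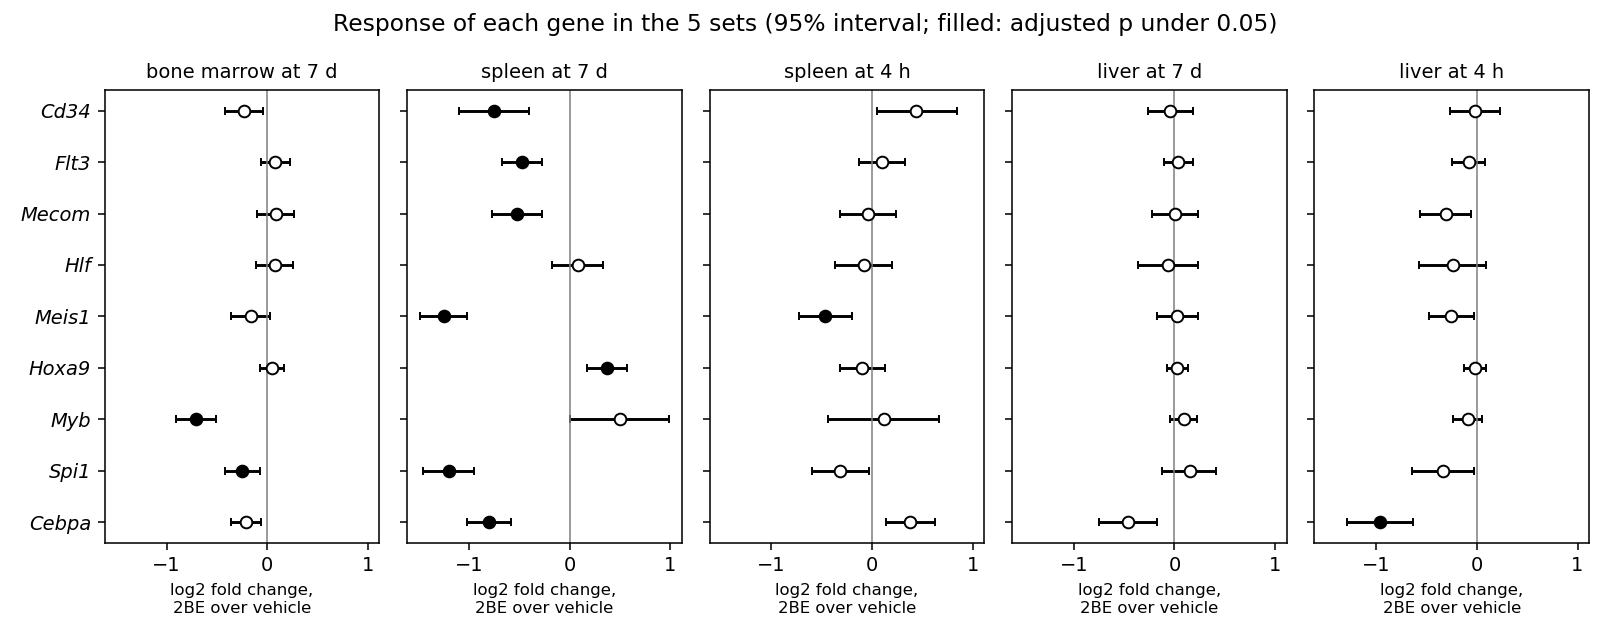
Log2 fold change of 2BE over vehicle for each of the 9 genes (rows) in the 5 tissue and time sets (panels), with the 95% interval; filled circles are genes with an adjusted p under 0.05. The spleen at 7 d holds 7 filled circles, 6 left of zero and Hoxa9 right of it, against 2 in bone marrow, 1 in the spleen at 4 h, none in the liver at 7 d and 1 in the liver at 4 h. In the same order of sets, 64.4%, 20.1%, 5.16%, 0.748% and 4.51% of all genes were called.

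The wider lists, which share some genes, also differed by lineage in the spleen. Of all genes, 32.4% were called higher and 32.0% lower here, so counts near these shares are ordinary. Of 25 stem and early progenitor genes, 8 rose and 14 fell, with a median of -0.33. The largest rises were those of Tal1 (2.82) and Gfi1b (2.54), and the largest falls those of Fli1 (-1.55), a factor of megakaryocytes and endothelium, and Cd27 (-1.52), a receptor of lymphocytes and multipotent progenitors. Of 13 erythroid and megakaryocyte progenitor genes, 12 rose, with a median of 2.54. They were led by Klf1 (3.20), the master factor of red cell genes, Nfe2 (3.03), Ermap (3.00) and Tal1, and the exception, named after its value was seen, was the platelet integrin gene Itga2b (-0.80). Of 15 growth factors and receptors, 1 rose, Epor (2.49), and 8 fell, among them Il7r (-1.24), the granulocyte-macrophage receptor gene Csf2ra (-1.12) and the niche chemokine gene Cxcl12 (-1.05). Of 12 lymphoid progenitor genes, 7 fell and none rose (median -1.04), led by Ebf1 (-1.52) and Satb1 (-1.51). Of 11 granulocyte and monocyte progenitor genes, 5 fell and none rose, led by Irf8 (-1.26) and Klf4 (-1.12). Of 8 MYB target and cofactor genes, 5 fell, led by Ets2 (-1.0), Bcl2 (-0.97) and Cd4 (-0.95), the last of these a T cell gene.

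Markers of several mature cell types also changed in the spleen, where 32.4% of all genes were called higher and 32.0% lower. Erythroid markers rose in 6 of 6 (median 2.75), with sums of 46297 to 56191 in 2BE spleens and 6750 to 17372 in vehicle spleens. Proliferation markers rose in 9 of 9 (median 2.38), with sums of 58466 to 71256 in 2BE spleens and 12395 to 21522 in vehicle spleens. Beside the fall of Spi1, B cell markers fell in 5 of 5 (sums of 6138 to 15734 in 2BE spleens, 29878 to 34921 in vehicle spleens) and macrophage markers in 6 of 9 with 1 higher (10497 to 14335 in 2BE spleens, 15534 to 18573 in vehicle spleens). T cell markers fell in 4 of 4 (1123 to 2572 in 2BE spleens, 4671 to 5630 in vehicle spleens). Beside the fall of Flt3, dendritic cell markers fell in 4 of 5 (1097 to 1394 in 2BE spleens, 2081 to 2587 in vehicle spleens). Beside the fall of Meis1, megakaryocyte and platelet markers fell in 5 of 7 (4384 to 5623 in 2BE spleens, 9156 to 12995 in vehicle spleens). Beside the falls of Cd34 and Mecom, endothelial markers fell in 7 of 8 (3769 to 4526 in 2BE spleens, 6390 to 7916 in vehicle spleens). Of 4 adipocyte markers 1 fell, the adiponectin gene Adipoq (-3.14, adjusted p = 0.0401), with sums of 176 to 235 in 2BE spleens and 159 to 2428 in vehicle spleens. Beside the fall of Cebpa, none of 8 neutrophil markers was called (8447 to 15418 in 2BE spleens, 10668 to 17830 in vehicle spleens). The part of these markers in the members' changes was not tested.

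**Figure D3:**
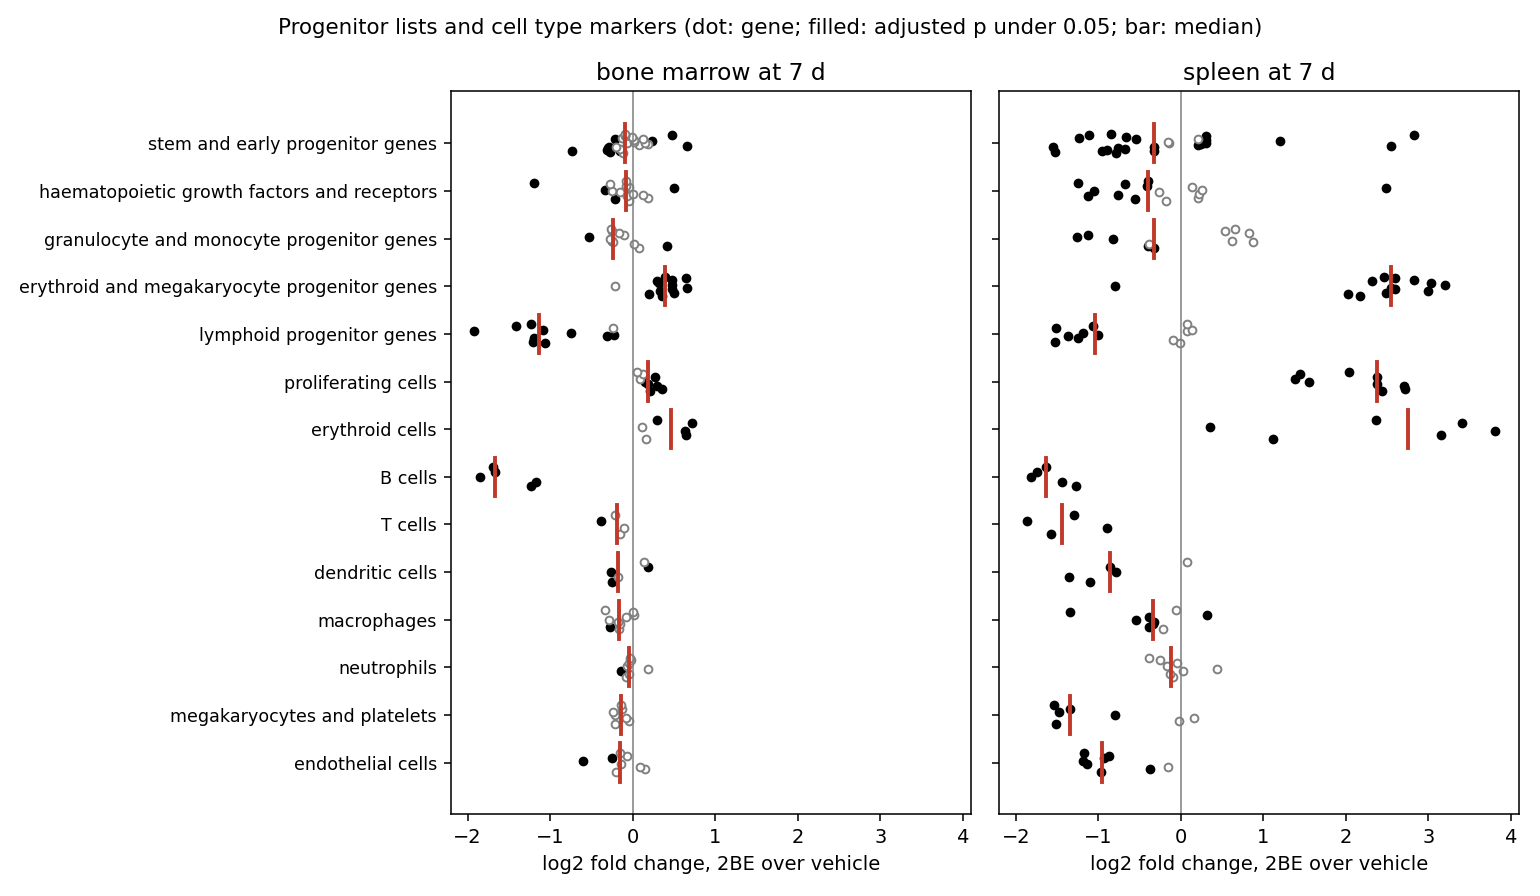
Log2 fold change of 2BE over vehicle at 7 d for every measured gene of 5 progenitor lists and 9 cell type marker lists (rows), in bone marrow on the left and spleen on the right, with genes as dots, filled where the adjusted p was under 0.05, and the list's median as a red bar. The medians of the erythroid and proliferation lists lie right of zero and those of the lymphoid and B cell lists left of it in both tissues, and the erythroid medians lie farther out in the spleen (2.54 and 2.75, against 0.39 and 0.46 in bone marrow).

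The responses of marrow and spleen at 7 d were compared directly as the difference of their log2 fold changes, fitted over all 7 d arrays. It passed the test for 8 of the 9 genes, all but Hlf, where 44.9% of all genes passed. For 6 genes the marrow response lay above that of the spleen (25.0% of all genes), and for 2, Myb and Hoxa9, below it (19.9%). The largest was that of Myb, whose marrow minus spleen difference was -1.21 ± 0.13 (adjusted p = 1.82e-08), made of a fall in marrow and a higher level in the spleen. For Hoxa9 it was -0.32 ± 0.097 (adjusted p = 0.00818). For Meis1 it was 1.09 ± 0.15 (adjusted p = 8.83e-07) and for Spi1 0.95 ± 0.15 (adjusted p = 4.85e-06), both with the lower value in the spleen. The other 4 were Mecom (0.61, adjusted p = 0.00234), Cebpa (0.59, 0.00304), Flt3 (0.56, 3.87e-05) and Cd34 (0.52, 0.0153). The call for Cd34 was lost without the 3 vehicle spleens of high adipocyte sums (0.34 ± 0.18, adjusted p = 0.14, against 0.00138 to 0.14 over the alternatives). Adipoq itself had a marrow minus spleen difference of 2.62 (adjusted p = 0.0371). For Hlf the 95% interval of the difference was -0.33 to 0.33.

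At 4 h in the spleen the members had moved little. Meis1 alone was called, lower in 2BE spleens, which is 1 of 9 where 5.16% of all genes were called and 1.85% were called lower. The members' median was -0.04, against -0.032 for all genes. Meis1 had 77.7, 84.2, 89.2 and 87.0 in 2BE spleens and 105, 118, 130.0 and 117 in vehicle spleens, without overlap. On the log2 scale the change was -0.47 ± 0.13 (adjusted p = 0.036). Another Meis1 probe set fell by 0.73 (adjusted p = 0.000495 over all probe sets). The call was kept without vehicle replicate 1 (adjusted p = 0.0377) and lost without each of the other 7 arrays (0.0594 to 0.101), including the vehicle array that stood apart (-0.42, adjusted p = 0.0801). It was also lost without 2BE replicate 3 together with the 3 vehicle spleens of high adipocyte sums at 7 d (-0.49, adjusted p = 0.116), and over all alternatives the adjusted p ran from 0.0177 to 0.116.

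Cebpa stood on the opposite side at this time. It had 511.5, 599, 563 and 559 in 2BE spleens and 406, 369.6, 468 and 473.5 in vehicle spleens, separate groups with 2BE above, but its log2 fold change of 0.38 ± 0.12 did not pass (adjusted p = 0.0699). Cd34 had 248, 228, 440.4 and 239 in 2BE spleens and 187, 173, 244 and 220.0 in vehicle spleens, with replicate 3 of 2BE far above the rest (0.44 ± 0.19, adjusted p = 0.209). Without that array, which also had the high adipocyte sum of 3028, the value was 0.22 ± 0.15 (adjusted p = 0.537, against 0.0805 to 0.537 over the alternatives). Spi1 had 726, 607.5, 586 and 591 in 2BE spleens and 647.5, 742, 906 and 852 in vehicle spleens, overlapping groups (-0.32 ± 0.14, adjusted p = 0.21). Myb varied widely, with 1357, 909.6, 1777 and 1831 in 2BE spleens and 1261, 884, 2687 and 966 in vehicle spleens. Its highest value belonged to the vehicle array that stood apart. The log2 fold change of Myb was 0.12 ± 0.26 (adjusted p = 0.858), and without that array 0.47 ± 0.19 (adjusted p = 0.169). Flt3, Mecom, Hlf and Hoxa9 had overlapping groups and log2 fold changes of 0.10, -0.04, -0.08 and -0.10. Around them, 3 of 25 stem and early progenitor genes rose (Procr 0.92, Cd93 0.67 and Esam 0.56) and none fell, where 3.31% of all genes rose. All 3 are also endothelial surface proteins, and 1 of 8 endothelial markers was called, with sums of 4181 to 5083 in 2BE spleens and 4018 to 4765 in vehicle spleens, whose part was not tested. Among granulocyte and monocyte genes, the C/EBP family genes Cebpd (1.60) and Cebpb (1.45) rose together with Klf4 (0.74), 3 of 11.

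Between 4 h and 7 d the spleen's response of 7 of the 9 genes differed by the test of the difference, all but Hlf and Myb, where 51.3% of all genes differed. For 6 it was lower at 7 d and for Hoxa9 higher, with 25.6% of all genes in each direction. Cd34 (-1.19 ± 0.25, adjusted p = 0.000933) and Cebpa (-1.18 ± 0.16, 1.72e-05) differed most, each from a value above zero at 4 h and a fall at 7 d. Adipoq also differed between the times (-5.31, adjusted p = 0.0286), 1 of 4 adipocyte markers, with sums at 4 h of 169 to 3028 in 2BE spleens and 155 to 239 in vehicle spleens. Without the 4 spleens of high adipocyte sums the Cd34 difference was -0.79 ± 0.2 (adjusted p = 0.00692, against 0.000222 to 0.00692 over the alternatives). Spi1 (-0.88 ± 0.18, 0.000767) and Meis1 (-0.79 ± 0.17, 0.00109) were already below zero at 4 h and lower at 7 d. Flt3 (-0.57, 0.00342) and Hoxa9 (0.46, 0.0121) had values near zero at 4 h. For Mecom (-0.48, 0.0316) the call was lost without any of 7 arrays, vehicle replicate 3 and 2BE replicates 1 and 2 at 4 h, and vehicle replicates 1 and 4 and 2BE replicates 1 and 2 at 7 d (adjusted p = 0.0747, 0.0678, 0.0539, 0.0542, 0.051, 0.0569 and 0.0557), within 0.0109 to 0.0747 over all alternatives.

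**Figure D4:**
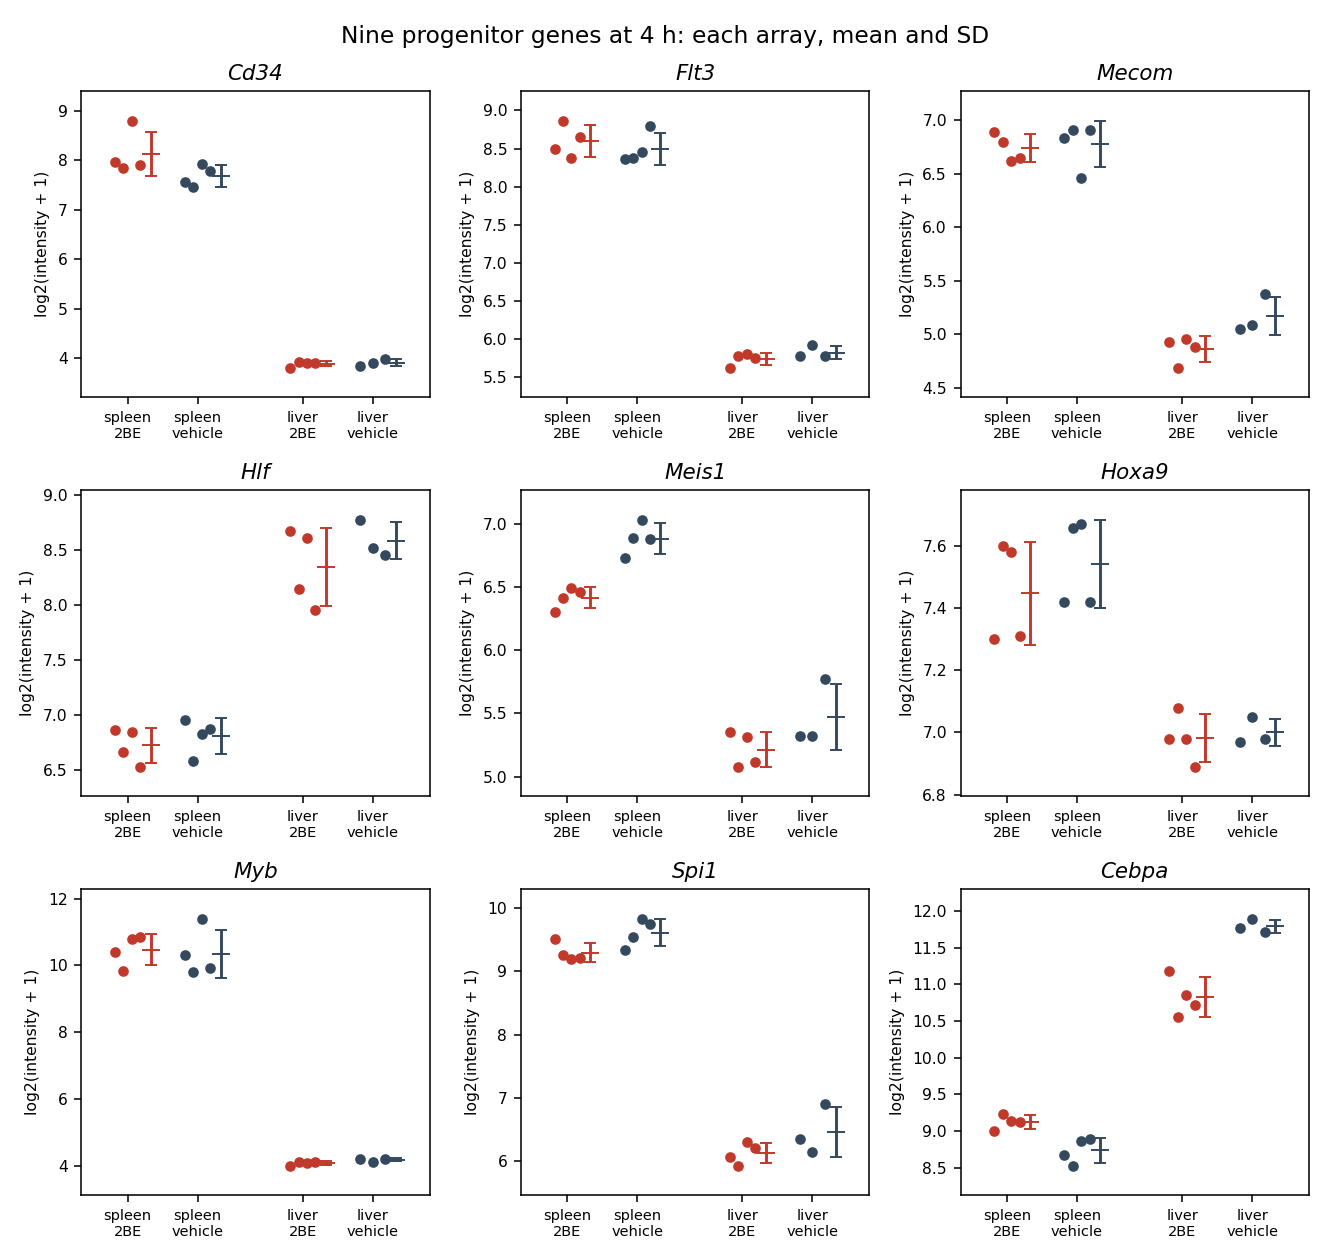
Level of each of the 9 genes at 4 h in spleen and liver, 1 panel per gene, as log2(intensity + 1) on a vertical axis that differs between panels and does not start at 0, with arrays as points (2BE in red, vehicle in dark blue; 4 and 4 for spleen, 4 and 3 for liver) beside their mean and SD. Meis1 separates in the spleen and Cebpa in the liver with 2BE lower, and the highest Myb point in the spleen is vehicle replicate 3.

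In the liver, where few blood progenitors reside in adults, Cebpa was the member that changed. At 4 h it fell by 0.96 on the log2 scale in 2BE livers, and none of the other 8 was called. That is 1 of 9, where 4.51% of all genes were called, 1.27% lower and 3.24% higher. The members' median was -0.24, against -0.017 for all genes. Cebpa, here a regulator of hepatocyte metabolism, had 2323.5, 1501, 1857 and 1686 in 2BE livers and 3482, 3796 and 3340.0 in vehicle livers. The groups were well apart. Its log2 fold change was -0.96 ± 0.16 (adjusted p = 0.00245), or 1.94-fold lower in 2BE livers. With a replicate block, in which same-numbered arrays are matched, 471 genes were called in all, against 821 without it. Whether replicate numbers pair these arrays was not settled. Mecom had 29.4, 24.8, 30.2 and 28.4 in 2BE livers and 32.0, 32.9 and 40.8 in vehicle livers, separate groups at low levels whose log2 fold change of -0.31 ± 0.12 did not pass (adjusted p = 0.173). Spi1 (-0.34), Meis1 (-0.26) and Hlf (-0.24) had overlapping groups. Single arrays decided these values: without vehicle replicate 3, Spi1 was at -0.12 (adjusted p = 0.687, against 0.0726 to 0.687 over the alternatives) and Meis1 at -0.11 (0.624, against 0.147 to 0.624). Hlf was at -0.11 without 2BE replicate 4 and at -0.15 without vehicle replicate 1 (0.815 and 0.782, against 0.227 to 0.815). The others, Cd34, Flt3, Hoxa9 and Myb, lay between -0.09 and -0.02. Of 25 stem and early progenitor genes, 4 rose at 4 h, Cd93 (0.78), Etv6 (0.68), Esam (0.59) and Msi2 (0.35), and of 11 granulocyte and monocyte genes Cebpd (2.16), Cebpb (1.34) and Klf4 (0.83) rose, so that Cebpa and its relatives moved in opposite directions.

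At 7 d none of the 9 was called in the liver (limma; 1 had an unadjusted p under 0.05), where 0.748% of all genes were called. Cebpa had 3517, 2354, 3351, 3553.5 and 2410.2 in 2BE livers, against 4470.4, 4232, 3931 and 3868.5 in vehicle livers. All 5 2BE arrays lay below all 4 vehicle arrays, replicates 2 and 5 far below, and the log2 fold change was -0.46 ± 0.14 (adjusted p = 0.142, 0.0876 to 0.313 over the alternatives). A two-sided exact permutation test gave p = 0.0238 for it. Hlf, bright in liver, had 484, 447, 551, 553 and 479 in 2BE livers and 624, 490.4, 547 and 451 in vehicle livers, overlapping groups (-0.06, 95% interval -0.36 to 0.23). Spi1 had 101 to 131 in 2BE livers and 94.5 to 111 in vehicle livers (0.15). Cd34 and Myb were near the floor of the arrays in liver: Cd34 had 13.2 to 19.8 in 2BE livers and 15.5 to 19.8 in vehicle livers, and Myb 16 to 19.9 in 2BE livers and 15.4 to 17.5 in vehicle livers, where the lowest value in the table was 6.16. Flt3, Mecom, Meis1 and Hoxa9 had log2 fold changes of 0.01 to 0.04. No member's liver response differed between 7 d and 4 h by the test of the difference, as for all but 0.269% of genes, although 2 had an unadjusted p under 0.05, Spi1 (0.48) and Cebpa (0.50).

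At 7 d the spleen's response was also set against that of the liver. It differed for 7 of the 9, where 57.0% of all genes differed: Myb (0.40, adjusted p = 0.0138) and Hoxa9 (0.34, 0.00468) lay higher in the spleen (27.4% of all genes), and 5 lay lower (29.6%). Those 5 were Spi1 (-1.35, 1.29e-08), Meis1 (-1.28, 4.85e-08), Cd34 (-0.70, 0.00139), Mecom (-0.53, 0.00699) and Flt3 (-0.51, 0.000103). Myb and Cd34 lay near the floor of the arrays in liver, so their differences rest mainly on the spleen values. Within the spleen, Myb did not pass the main test (limma adjusted p = 0.0728). Cebpa, lower with 2BE in both tissues, had a difference of -0.33 ± 0.16 (adjusted p = 0.0791). It passed without liver 2BE replicate 2 or 5 or spleen 2BE replicate 5 (adjusted p = 0.0233, 0.0276 and 0.0178), and over all alternatives the adjusted p ran from 0.00292 to 0.286. These differences share the spleen arrays with those between marrow and spleen.

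Probe sets of 1 gene did not always move together. The 3 Myb probe sets gave like values in marrow and spleen: at 7 d in the spleen they were 0.50, 0.66 and 0.53, and the second passed (adjusted p = 0.0335 over all probe sets). The brightest of them is of a design that may also bind related transcripts. For Meis1 at 7 d in the spleen the brightest probe set fell by 1.25 and the next by 0.49 (adjusted p = 0.000413), while the third, at -0.11, was not called. At 4 h the 3 Meis1 values were -0.47, -0.73 and -0.25. For Mecom at 7 d in the spleen the brightest gave -0.52, but the other 2, at 0.21 and 0.11 (adjusted p = 0.118 and 0.15), lay on the other side of zero and were dim, the dimmest at 13.8 to 16.3 in 2BE spleens and 13.6 to 14.8 in vehicle spleens. The fall of Mecom therefore rests on 1 probe set. Both Hoxa9 probe sets were above zero in the spleen at 7 d (0.37 and 0.46), the dimmer not called (adjusted p = 0.114). Both Hlf probe sets gave 0.08 there. Cd34, Flt3, Spi1 and Cebpa had 1 probe set each.

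**Figure D5:**
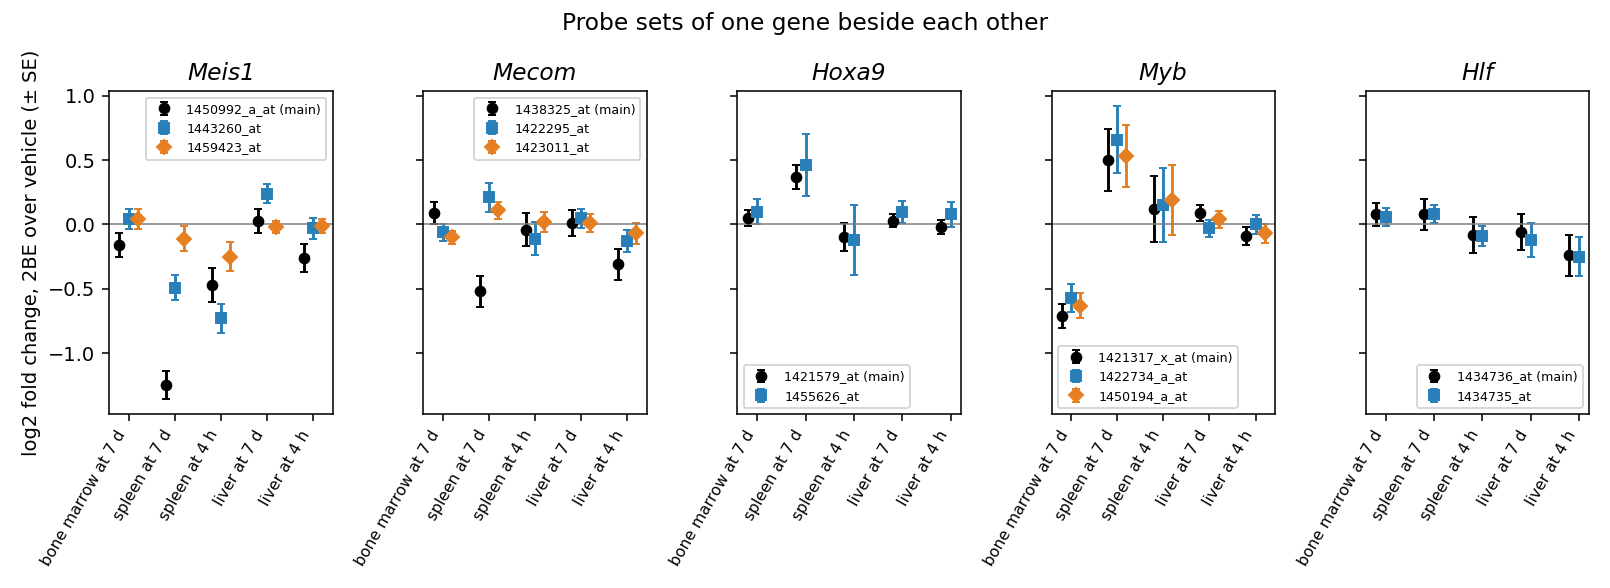
Log2 fold change of 2BE over vehicle (± SE) for each probe set of the 5 genes with more than 1, in the 5 tissue and time sets along the horizontal axis, with black circles for the brightest probe set, the one used for the gene. The Myb probe sets lie close together, whereas in the spleen at 7 d those of Meis1 spread between -1.25 and -0.11 and those of Mecom lie on both sides of zero.

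Across the 44 arrays, each gene's log2 level was set against its vehicle mean in its own set. The genes with the most similar pattern were taken from those whose mean level lay above the median of all genes. These correlations are descriptions, since the arrays share tissues, times and treatments. Spi1 and Meis1 were alike, with a Pearson r of 0.92, and Hoxa9 ran against Spi1 with -0.69. Outside the members, Spi1 was most like Ncf4 (0.965), Itgal (0.952) and Psmb9 (0.948), and Meis1 most like Pycard (0.94), Arhgdib (0.934) and Rasa3 (0.932). Cd34 was most like Ghr (0.88), Cavin1 (0.871) and Fhl1 (0.871), and Flt3 like Rnd3 (0.843), AU021092 (0.83) and Cyp1b1 (0.828). Mecom was most like Rassf5 (0.835), Coq8a (0.82) and Calcrl (0.814), and Cebpa like Dhrs3 (0.877), Prkd3 (0.865) and Dapk1 (0.864). The genes most like Hoxa9 were Inpp5j (0.876), Syngr1 (0.872) and Casp9 (0.865), and those most like Myb were Xrcc6 (0.836), Coq7 (0.836) and Cdca7 (0.815).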

How the data were processed

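RNA of liver, spleen and bone marrow was hybridised to 44 Affymetrix mouse arrays of 1 colour, with one-cycle biotin labelling per the labels' protocols. The deposited values are intensities on a linear scale, 6.16 to 47797.8, made by the authors with RMA per the submitters' processing notes (version not given in the sources used here). Of 45101 probe sets, 64 controls were left out, 34945 had 1 gene symbol, 932 several and 9160 none, per the platform annotation, and only those with 1 were used. They covered 18193 genes, each represented by its probe set of highest mean log2 value.

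The deposited intensities were taken as log2(value + 1), so changes of dim genes are understated. Groups were compared with limma 3.58.1 in R 4.3.3 (lmFit, eBayes) with 1 fit each for marrow, spleen and liver and 1 over all 7 d arrays for differences between tissues, adjusted by Benjamini-Hochberg over all genes and called at 0.05. The fits were also run on simulated data with independent noise and known changes in a small part of the genes. That checks the fitting code and not the calls in these data. The number of arrays limits the precision. The alternatives were a pseudocount of 16, further quantile normalization, a low-value filter at the lower quartile, fewer arrays in the fit, a replicate block, another variance model, array weights, other probe set rules, exact permutation, leaving out each array and, chosen after seeing the data, leaving out 4 spleens whose summed adipocyte markers exceeded 500. In the liver at 4 h the correlations of same-numbered deviations were 0.132, 0.282 and 0.146, all above zero. In each of the other sets they had both signs, with single values as high or higher. Whether replicate numbers pair samples in any set was therefore not settled.

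The 9 genes and the 6 gene and 13 marker lists were chosen with earlier results of these data known. Named besides the members are, per list and comparison, up to 4 called genes of largest change. For each member called in a set, the 3 genes of most similar pattern among those above the median level are named too.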

Additional observations from a re-analysis of the deposited data

Results flagged for a closer look

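Of 81 member and group values, 4 held an array far from the others of its group by Dixon's test, and chance alone gives about 1 in 20. In the spleen at 4 h, Cd34 reached 440.4 in 2BE replicate 3 and Spi1 725.6 in 2BE replicate 1, each the highest of 4. In vehicle livers at 7 d, Cd34 reached 19.8 in replicate 3, and Flt3 was lowest in replicate 4, at 83.7.

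Of 36 differences of responses, 22 passed the test of the difference (log2 units, limma with Benjamini-Hochberg adjustment). Of all genes, 44.9% passed for bone marrow minus spleen at 7 d and 57.0% for spleen minus liver at 7 d. Between 7 d and 4 h, 51.3% passed in the spleen and 0.269% in the liver. Bone marrow minus spleen at 7 d gave -1.21 for Myb and -0.32 for Hoxa9, against 1.09 for Meis1, 0.95 for Spi1, 0.61 for Mecom, 0.59 for Cebpa, 0.56 for Flt3 and 0.52 for Cd34. Spleen minus liver at 7 d gave 0.40 for Myb and 0.34 for Hoxa9, against -1.35 for Spi1, -1.28 for Meis1, -0.70 for Cd34, -0.53 for Mecom and -0.51 for Flt3. Within the spleen, the response at 7 d minus that at 4 h was 0.46 for Hoxa9, -1.19 for Cd34, -1.18 for Cebpa, -0.88 for Spi1, -0.79 for Meis1, -0.57 for Flt3 and -0.48 for Mecom. These 3 sets of differences share the 7 d spleen arrays. Myb and Cd34 lay near the floor of the arrays in liver, so their spleen minus liver values rest mainly on the spleen.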

How the results depend on the processing

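Of 1758 values of the members under the alternatives, 1709 kept their side of the threshold, 28 lost the call, 21 gained it and none reversed a called direction. A change of sign was seen in 43, all for members not called. These counts include the exact permutation test, whose unadjusted p was held to the same 0.05. By it, Cebpa gained in marrow, the spleen at 4 h and the liver at 7 d. Mecom gained in the liver at 4 h and Myb in the spleen at 7 d. The p ranges over the alternatives leave that test out. In the spleen at 4 h 508 genes were called with only the compared arrays and 479 without the 4 spleens of high adipocyte markers (chosen after seeing the data), against 938. In the liver at 7 d the count was 244 with only the compared arrays, 406 with array weights and 36 to 250 leaving out each array, against 136. In the liver at 4 h it was 176 with only the compared arrays, 471 with the replicate block and 466 to 1090 leaving out each array, against 821, and Cebpa kept its call with that block (-0.92, adjusted p = 0.0207, against 0.000762 to 0.0302 over the alternatives). For the liver's difference between times it was 86 with array weights and 4 to 111 leaving out each array, against 49. Further quantile normalization moved the share of higher calls to 55.2% from 67.6% in the liver at 7 d, to 60.8% from 71.9% in the liver at 4 h and to 47.6% from 36.7% in the liver's difference between times. In marrow 1 member was called when all probe sets were tested and 1 to 3 leaving out each array. In the spleen at 4 h no member was called after further quantile normalization (Meis1, limma adjusted p = 0.0745, range 0.0177 to 0.116; 4 had an unadjusted p under 0.05 in the unaltered data), or without those 4 spleens, and 0 to 1 leaving out each array. Without them Cd34 also lost its call in the difference between marrow and spleen (0.34, adjusted p = 0.14, range 0.00138 to 0.14). The replicate block, where the pairing by number was not settled, called 8 members in the spleen at 7 d. Myb was among them (limma adjusted p = 0.0197, range 0.000817 to 0.149). It also called 8 in the difference between spleen and liver, with Cebpa (0.0202, range 0.00292 to 0.286). Spi1 in marrow lost its call with the block (0.0534, range 0.0154 to 0.0847). The causes of these changes were not tested. Cd34 and Myb in liver lay near the lowest intensities of the arrays, which limits what could be seen there.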

Other observations

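Some genes of bone cells, which share the marrow space with blood progenitors, also fell in 2BE marrow at 7 d. Of 5 measured bone cell markers 3 fell and 2 were not called (limma, Benjamini-Hochberg), where 10.7% of all genes were called lower. Ibsp, a bone matrix protein gene, fell by 0.57 (adjusted p = 0.00467) and Alpl, the alkaline phosphatase gene, by 0.56 (0.00596). Sp7, the osteoblast factor osterix, fell by 0.44 (0.000648). The summed intensities of all 5 markers overlapped, at 2402 to 3542 in 2BE marrow and 2656 to 3511 in vehicle marrow.

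Markers of mast cells and basophils, which descend from myeloid progenitors, were split in the same marrow arrays. Of 6 measured, Mcpt8 (-0.34), Cpa3 (-0.31) and Ms4a2 (-0.29) fell and the tryptase gene Tpsb2 (0.28) rose. Their sums were 1894 to 2113 in 2BE marrow and 2168 to 2742 in vehicle marrow, without overlap. None of 7 megakaryocyte and platelet markers was called there, with fold changes of -0.24 to -0.05 (log2), while their sums of 24459 to 30903 in 2BE marrow lay below those of 31441 to 35204 in vehicle marrow. The summed granulocyte and monocyte progenitor genes of spleen vehicle replicate 3 at 4 h were 37279, against 6280 to 10506 in the other 3 vehicle spleens of that time.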
